A study of Mus musculus with 4 samples.

Results

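Cytochrome P450 genes were examined in the ureter of adult mice, a duct of urothelium wrapped in smooth muscle. The members were all genes whose single annotated symbol had the form of a P450 gene (Cyp, a family number, a subfamily letter and a gene number). This rule found 70 of 18193 named genes, on 93 of 45037 probe sets. Por, the reductase that passes electrons to P450 enzymes, belonged to the rule as well but no probe set carried its symbol alone, so it is not analysed here. The 4 samples were ureters of male adult FVB/N mice at Theiler stage 28, carrying the SMGA/EGFP transgene, in which smooth muscle gamma actin sequences drive green fluorescent protein. The ureter was cut out between kidney and bladder by its fluorescence, RNA of unpooled samples was amplified in 2 rounds, and each sample was hybridised to 1 Affymetrix MOE430 array. All samples form 1 group, so no treatment or genotype was compared. Replicate numbers 1 to 4 are names only. Separate animals are not stated in the labels, so p-values measure only the spread between these samples.

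P450 enzymes hold a haem group and use molecular oxygen to oxidise their substrates. Most sit in the endoplasmic reticulum and take electrons from Por, and a few sit in mitochondria and take them from ferredoxin. Families 1 to 3 are best known for the oxidation of drugs and other foreign compounds in the liver, family 4 for the oxidation of fatty acids, and the higher families for single steps in the metabolism of steroids, bile acids, vitamin D and retinoic acid. Lining epithelia of airway, gut and urinary tract express their own small sets of them.

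A level is log2(signal + 16), where signal is the deposited intensity, and a distance is a level minus the background threshold of its array. The thresholds, set from 82 probe sets of smell, taste and pheromone receptor genes, were 7.23, 6.98, 7.57 and 7.36 in replicates 1 to 4. A level under its threshold is only an upper bound. The brightest probe set on average stands for each gene, and levels of different genes were not set against each other, since probe sets differ in brightness. In whole tissue, fewer cells of a type and less RNA per cell cannot be told apart.

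The arrays differed in RNA quality and in genes of other organs. The 3' to 5' signal ratio of Actb ranged from 4.426 in replicate 4 to 19.8 in replicate 2, and that of Gapdh from 18.77 to 36.94. All 7 smooth muscle markers were over the threshold on every array (Actg2 at 11.91 ± 0.96, Myh11 at 11.09 ± 0.60, Acta2 at 14.73 ± 0.70, SD, n = 4). Of 8 urothelial markers 6 to 8 were over it per array (Upk1a at 10.60 ± 0.89, Upk1b at 15.01 ± 0.56, Upk2 at 10.02 ± 0.36). All 10 liver markers were over the threshold in replicates 1 and 3, against 2 in replicate 2 and 1 in replicate 4, and their summed intensity was 58196, 738, 14858 and 858 in replicates 1 to 4. All 7 skeletal muscle markers were over the threshold in replicate 3 (Myh4 at 16.39, Acta1 at 14.90 and Ckm at 13.03) and 0 to 2 elsewhere. The 7 male reproductive tract markers were over the threshold in 7, 7, 3 and 1 cases in replicates 1 to 4 (Svs2, Svs4 and Svs5 highest in replicate 2 at 12.89, 14.80 and 14.61, and Pbsn and Spink1 highest in replicate 3 at 15.41 and 14.97). Their summed intensity was 7379, 70120, 76117 and 689 in replicates 1 to 4. Of 7 kidney markers at most 1 was over the threshold on any array, and Umod, Slc12a1 and Slc12a3, nephron genes, were under it on all 4.

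Of the 70 P450 genes, 20 were above background (28.6%), where 57.9% of all named genes were (limma's moderated one-sided test of the mean distance, Benjamini-Hochberg adjusted p under 0.05). The same 20 genes were over the threshold on all 4 arrays, where 58.4% of all named genes were, and 28 of the 70 (40%) were over it on none, against 23.4% of all named genes. The median distance was -0.67 over the P450 genes and 1.89 over all named genes. In replicates 1 to 4, 38, 25, 30 and 22 of the P450 genes were over the threshold, which is 54.3%, 35.7%, 42.9% and 31.4%. All named genes were over it in 67%, 68.6%, 67.4% and 65.9% of cases on the same arrays. The P450 share was thus highest in replicate 1 and lowest in replicate 4, while that of all genes stayed within a narrow band.

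**Figure D1:**
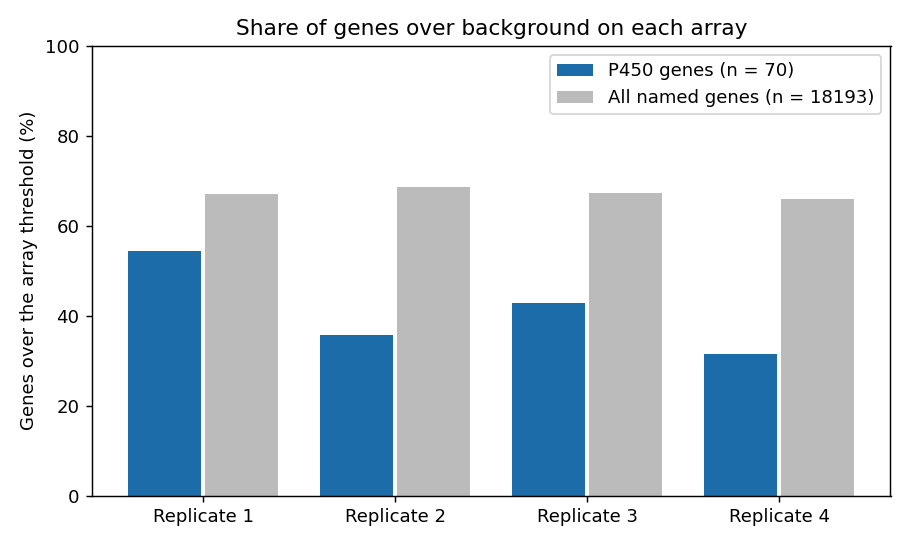
Bars give the percentage of genes over each array's background threshold, with the 70 P450 genes in blue and all 18193 named genes in grey. The P450 bars run from 31.4% in replicate 4 to 54.3% in replicate 1, and those of all named genes from 65.9% to 68.6%.

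Genes were then sorted by how they varied between the arrays. A gene was called even if it was over the threshold on all 4 arrays with a range of at most 2 log2 units, and high in 1 array if its highest level was over the threshold and at least 2 log2 units above the next. By these rules 14 P450 genes were even (20%, against 53.3% of all named genes), 11 were high in 1 array (15.7%, against 2.58%) and 1 was high in 2 arrays (1.43%, against 0.819%). Another 16 were over the threshold somewhere without meeting any of these rules (22.9%, against 19.9%). The sorting uses the values themselves and is a description without a test. The closest members inside the even limit were Cyp26b1 and Cyp2s1, with ranges of 1.79 and 1.44, and the closest outside were Cyp1b1 and Cyp1a1 at 2.07 and 2.28. The gap of the highest array was 2.03 in Cyp2c23 and 2.53 in Cyp2a12 just inside the limit, and 1.92 in Cyp2d10 and 1.91 in Cyp7b1 just outside.

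**Figure D2:**
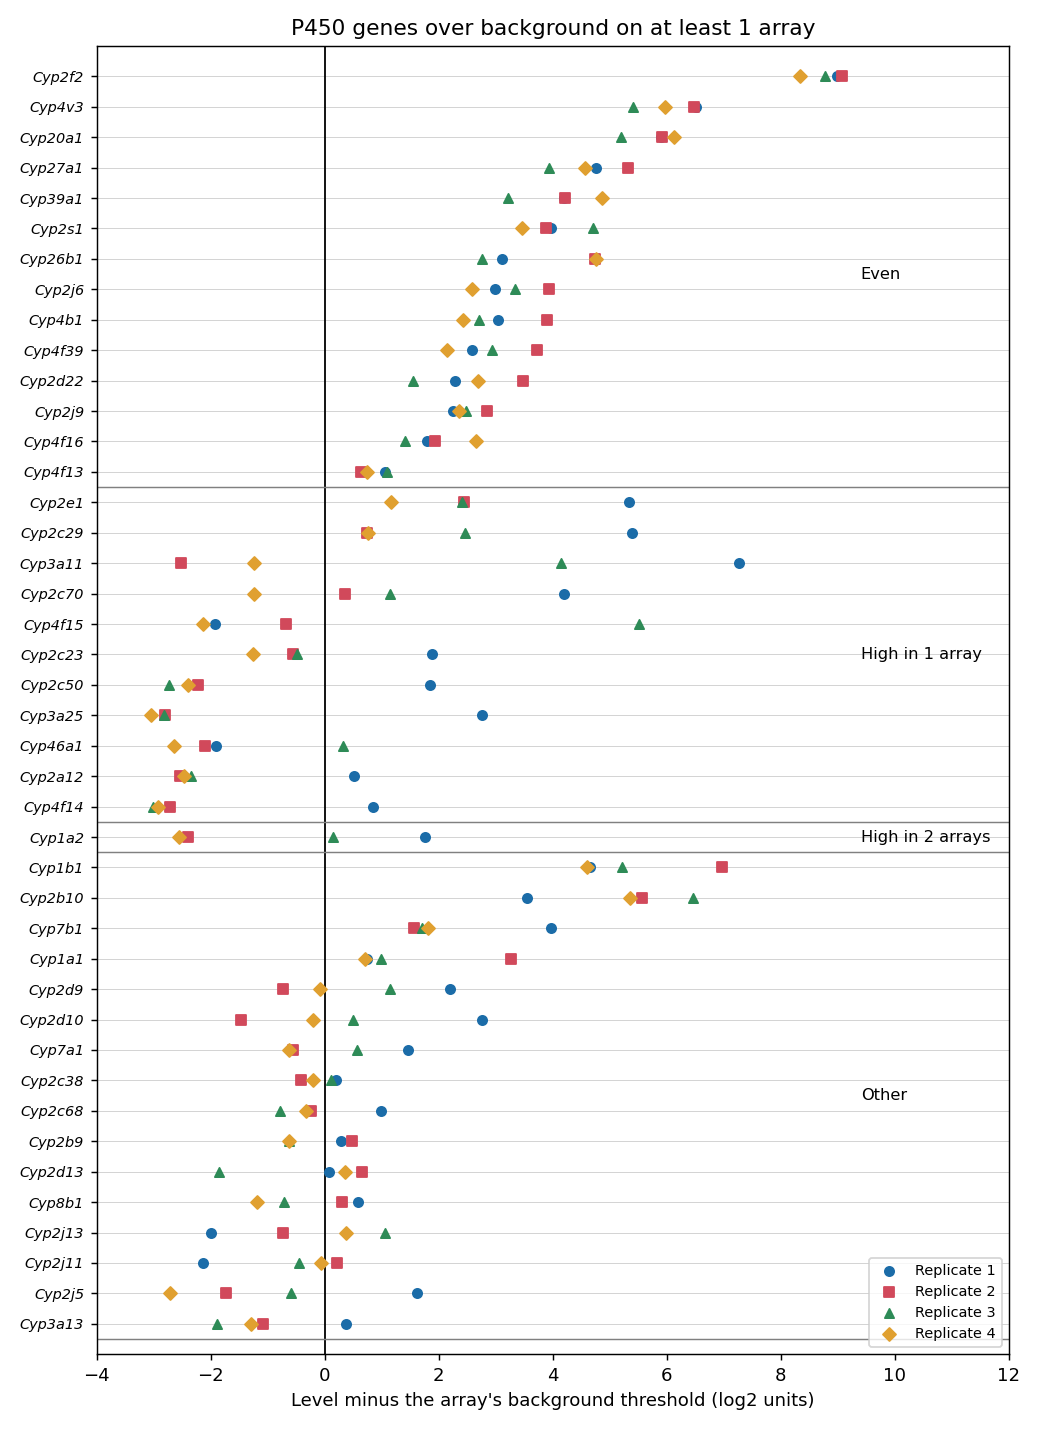
Each row is a P450 gene over the threshold on at least 1 array, and each point is an array's level minus its background threshold in log2 units, with the vertical line at the threshold. The 14 even genes lie right of the line on all 4 arrays, and 9 of the 11 genes high in 1 array have replicate 1 as the highest point.

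Promoter windows are printed for genes that stood out by array, to show the sequence before their starts. RefSeq windows on GRCm38.p6 of 300 bases, 250 before to 50 after the start, matched 51 of the 70 genes. Capitals mark matches, on either strand, of GCGTG, the core bound by the aryl hydrocarbon receptor, of CAAAGTCCA, bound by the liver factor HNF4A, and of TATAAA. A match describes letters and not a bound site. Cyp1a1 (chr9:57697363-57697662, plus strand) and Cyp1b1 (chr17:79715012-79715311, minus strand) were the pair highest in replicate 2. Cyp3a11 (chr5:145879805-145880104, minus strand), Cyp2c70 (chr19:40187237-40187536, minus strand) and Cyp2e1 (chr7:140763569-140763868, plus strand) were high in replicate 1, and Cyp4f15 (chr17:32685409-32685708, plus strand) in replicate 3.
Cyp1a1: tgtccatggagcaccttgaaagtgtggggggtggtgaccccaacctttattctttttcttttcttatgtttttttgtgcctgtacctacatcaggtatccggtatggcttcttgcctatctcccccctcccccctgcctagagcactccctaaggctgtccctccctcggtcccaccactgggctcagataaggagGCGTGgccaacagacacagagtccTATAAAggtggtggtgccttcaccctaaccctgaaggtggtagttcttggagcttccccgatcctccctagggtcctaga
Cyp1b1: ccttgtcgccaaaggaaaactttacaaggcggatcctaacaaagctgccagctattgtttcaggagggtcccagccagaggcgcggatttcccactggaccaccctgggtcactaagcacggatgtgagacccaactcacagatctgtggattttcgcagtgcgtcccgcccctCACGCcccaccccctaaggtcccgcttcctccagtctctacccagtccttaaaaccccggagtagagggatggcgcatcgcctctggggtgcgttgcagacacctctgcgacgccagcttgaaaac
Cyp3a11: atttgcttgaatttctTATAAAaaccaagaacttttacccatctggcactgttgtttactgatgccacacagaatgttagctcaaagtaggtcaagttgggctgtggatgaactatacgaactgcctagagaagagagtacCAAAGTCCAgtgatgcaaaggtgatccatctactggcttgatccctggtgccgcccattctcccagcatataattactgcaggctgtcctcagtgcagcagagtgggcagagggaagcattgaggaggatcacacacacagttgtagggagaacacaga
Cyp2c70: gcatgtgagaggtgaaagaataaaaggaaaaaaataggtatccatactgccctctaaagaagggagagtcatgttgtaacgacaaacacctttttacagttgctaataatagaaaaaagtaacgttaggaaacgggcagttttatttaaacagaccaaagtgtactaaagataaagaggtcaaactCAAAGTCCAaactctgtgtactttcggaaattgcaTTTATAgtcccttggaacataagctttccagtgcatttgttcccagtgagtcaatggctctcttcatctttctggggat
Cyp2e1: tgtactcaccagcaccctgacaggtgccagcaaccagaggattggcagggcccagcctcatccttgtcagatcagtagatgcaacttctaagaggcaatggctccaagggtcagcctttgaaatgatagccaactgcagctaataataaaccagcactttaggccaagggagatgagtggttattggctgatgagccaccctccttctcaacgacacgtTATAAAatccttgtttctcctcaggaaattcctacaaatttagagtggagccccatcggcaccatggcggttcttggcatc
Cyp4f15: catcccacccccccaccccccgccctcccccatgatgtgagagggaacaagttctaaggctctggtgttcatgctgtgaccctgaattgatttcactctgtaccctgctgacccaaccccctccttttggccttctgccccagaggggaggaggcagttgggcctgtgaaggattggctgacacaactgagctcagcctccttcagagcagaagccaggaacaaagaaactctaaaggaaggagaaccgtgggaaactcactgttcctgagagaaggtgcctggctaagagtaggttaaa
The GCGTG core was present in the windows of both Cyp1a1 and Cyp1b1, in 13 of 51 P450 genes and in 32.4% of all 32851 windows. CAAAGTCCA was found in 6 of 51 P450 genes and 0.475% of all windows. The 6 were Cyp3a11 and Cyp2c70, which were high in replicate 1, Cyp2c68 and Cyp8b1, which were over the threshold in some arrays, and Cyp3a16 and Cyp2c65, which were under it on all 4. TATAAA was found in 21 of 51 P450 genes and 13.6% of all windows. The palindromic HNF1 consensus was in 0 of 51 P450 genes and 0.00913% of all windows. A P450 gene counted once if any of its windows matched, whereas the shares of all windows count each window, so the units differ. P450 genes of a subfamily arose by duplication and can share promoter letters, so these counts are not over independent sequences.

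Among the even genes of family 2, Cyp2f2 had levels of 16.22, 16.06, 16.35 and 15.69 in replicates 1 to 4. Cyp2f2 is the P450 known from the club cells of the mouse airway, where it activates naphthalene. Its level was 16.08 ± 0.28 (adjusted p = 1.14e-08, limma), with all 4 arrays within 0.66. Its only probe set is open to several transcripts. Cyp2s1, an epithelial P450 inducible by dioxin, had 11.20, 10.87, 12.27 and 10.83, highest in replicate 3. Cyp2d22, of the subfamily of the human debrisoquine hydroxylase, had 9.52, 10.46, 9.11 and 10.05 (adjusted p = 0.00016, limma), while its second probe set was not above background (adjusted p = 0.546). It was the single gene of 8 in subfamily 2d that was above background.

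Of 17 measured fatty acid and eicosanoid P450 genes, 7 were above background (57.9% of all named genes were) and 5 were under the threshold on every array (23.4% of all named genes were). The 7 were all even. Cyp4v3, the mouse counterpart of the human fatty acid hydroxylase gene mutated in Bietti crystalline dystrophy, had 13.74, 13.45, 12.98 and 13.33. Its second probe set was above background as well. Cyp4b1, a family 4 enzyme known from lung and bladder epithelium, had 10.26, 10.88, 10.27 and 9.78. Cyp2j6 and Cyp2j9 belong to the arachidonic acid epoxygenase subfamily. Cyp2j6 had 10.22, 10.92, 10.91 and 9.94, and Cyp2j9 had 9.48, 9.82, 10.04 and 9.72, the smallest range of the even genes at 0.55. Cyp4f39, counterpart of a human gene for the skin lipid barrier, had 9.82, 10.71, 10.50 and 9.50. Cyp4f16 was even in 3 arrays and 0.99 higher in replicate 4 (9.02, 8.91, 8.98 and 10.01), and its call was lost with the median over its 2 probe sets (adjusted p = 0.123, limma). Cyp4f13 had 8.29, 7.61, 8.66 and 8.10, close to the thresholds (adjusted p = 0.0192, limma). Its call was lost without replicate 1 (0.0752), without replicate 3 (0.0534) and with both stricter backgrounds (0.315 and 1).

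Of 6 P450 genes of cholesterol and bile acid metabolism, 3 were above background, beside 57.9% of all named genes, and 2 were even, beside 53.3%. Cyp27a1, the mitochondrial sterol 27-hydroxylase, had 11.99, 12.30, 11.51 and 11.92, and Cyp39a1, an oxysterol 7-alpha-hydroxylase, had 11.43, 11.20, 10.79 and 12.22. Both were above background (adjusted p = 6.19e-07 and 2.29e-06, limma). A second probe set of Cyp27a1 was under the threshold on every array (5.57, 4.07, 4.23 and 5.32), and the median over both put its distance at 1.08 in place of 4.64. Cyp26b1, which degrades retinoic acid, had 10.34, 11.72, 10.33 and 12.12, with replicates 2 and 4 above replicates 1 and 3. Its relative Cyp26a1 was under the threshold on every array. Cyp20a1, whose substrate is not known, had 13.12, 12.89, 12.76 and 13.48. Its other 2 probe sets were not above background.

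P450 genes of steroid hormone synthesis and of vitamin D metabolism were under the threshold on all 4 arrays. The steroid group held 5 measured genes, Cyp11a1, Cyp11b1, Cyp11b2, Cyp17a1 and Cyp21a1, with means from 5.63 to 6.59. The vitamin D group held 3, the activating enzymes Cyp2r1 and Cyp27b1 and the degrading enzyme Cyp24a1, with means from 5.05 to 6.01. Of 5 steroidogenic markers 2 were above background, Scarb1 at 10.16 ± 0.50 and Fdx1. Star was over the threshold on all 4 arrays (8.10, 7.27, 8.68 and 7.41) but was not called by the test (adjusted p = 0.127, limma), and Hsd3b1 was under it on all 4 (5.74 ± 0.94). Fdx1, which serves mitochondrial P450 enzymes in many tissues, was at 14.28 ± 0.38.

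The genes high in 1 array were mostly high in replicate 1. In replicate 1 alone 9 P450 genes were high (12.9%, against 0.478% of all named genes), in replicate 3 alone 2 were (2.86%, against 1.68%), and in replicates 2 and 4 there were 0 and 0 (against 0.335% and 0.0879%). Of the 87 named genes that were high in replicate 1 alone, 9 were P450 genes (10.3%), while P450 genes are 0.385% of all named genes. With levels under a threshold set to that threshold, 6 of the 11 still had a gap of 2 log2 units, which is 8.57% of the 70 P450 genes, against 1.51% of all named genes. Among all named genes high in 1 array, 274 of 469 kept such a gap. Those were Cyp3a11, Cyp2c29, Cyp2e1, Cyp2c70 and Cyp3a25, high in replicate 1, and Cyp4f15, high in replicate 3. Without replicate 1, 4 P450 genes were high in 1 array, of which 3 were among the 11. Without replicates 1 and 3, 1 was high in 1 array, 20 were even and 18 were above background, where 57.2% of all named genes were above background. With arrays left out, the shares of all named genes that were even or high in 1 array are not given. A range over fewer arrays cannot be larger, so these counts have no background to be read against.

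Cyp3a11, the main drug-oxidising P450 of mouse liver, had 14.50, 4.46, 11.72 and 6.12 in replicates 1 to 4. It was over the threshold in replicates 1 and 3 and under it in replicates 2 and 4, with intensities of 23104, 6.05, 3356 and 53.3. The test of the mean did not call it (adjusted p = 0.257, limma). Cyp2e1, which oxidises ethanol and other small molecules, had 12.57, 9.43, 9.98 and 8.53 and was over the threshold on every array (adjusted p = 0.00214, limma). Cyp2c29 had 12.62, 7.73, 10.02 and 8.12, also over it on every array (adjusted p = 0.0158), though not called at the 99th percentile of the background genes (0.0658) or at their median plus 3 median absolute deviations (0.302). Cyp2c70, which makes muricholic bile acids in mice, had 11.43, 7.33, 8.71 and 6.12, under the threshold in replicate 4, and was called only without that array (adjusted p = 0.206 with all arrays and 0.0423 without replicate 4, limma).

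The remaining genes high in replicate 1 were under the threshold on the other 3 arrays. Cyp3a25, the neighbour of Cyp3a11, had 9.98 in replicate 1, against 4.17 to 4.74 elsewhere. Cyp2c50 had 9.08 against 4.75 to 4.96, and Cyp2c23, whose product is an arachidonic acid epoxygenase, had 9.11 against 6.11 to 7.08. Cyp4f14, a fatty acid hydroxylase gene of the leukotriene group, had 8.08 against 4.27 to 4.56. Cyp2a12, a steroid hydroxylase gene of liver, had 7.75 against 4.44 to 5.22. Cyp1a2, a family 1 enzyme found chiefly in liver, was the gene high in 2 arrays (high in replicates 1 and 3 in 0.242% of all named genes), at 8.98 in replicate 1 and 7.72 in replicate 3, against 4.59 and 4.81 in replicates 2 and 4.

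Some of the P450 genes highest in replicate 1 shared the order of the arrays with liver markers. Of 42 P450 genes over the threshold on at least 1 array, 20 were highest in replicate 1 (47.6%, against 22.2% of all such genes), 7 in replicate 2 (16.7%, against 24.2%), 9 in replicate 3 (21.4%, against 30.5%) and 6 in replicate 4 (14.3%, against 23.1%). In 9 of the 42 replicate 1 was highest and replicate 3 next, both over their thresholds (21.4%, against 6.08% of all such genes), and all 10 liver markers had that order. This order is of levels. With each array's threshold subtracted, replicate 2 was second in Cyp2e1 and replicate 4 in Cyp7b1, each by a small margin. Alb, the albumin gene, had 14.58, 6.91, 11.84 and 7.88, Apoa1 had 12.05, 4.60, 8.70 and 5.31, and Apoa2 had 10.20, 7.90, 8.89 and 7.11. Replicate 1 exceeded replicate 3 by 2.73 in Alb and by 0.56 to 3.53 over the 10 liver markers. Over the 9 P450 genes the excess was 0.56 in Cyp7a1, 0.72 in Cyp2d9, 1.26 in Cyp1a2, 1.91 in Cyp7b1, 1.92 in Cyp2d10, 2.59 in Cyp2e1, 2.60 in Cyp2c29, 2.72 in Cyp2c70 and 2.78 in Cyp3a11. The last 4 were chosen as high in 1 array, which needs a gap of at least 2. In 5 more P450 genes, Cyp3a25 and Cyp4f14 among them, replicate 3 was next but under its threshold, so no excess is given. The rest of the 20 had another array second. The part of liver RNA in the levels of these P450 genes was not tested. Among the 9 were also Cyp7a1, the rate-limiting enzyme of bile acid synthesis (8.69, 6.42, 8.13 and 6.74), Cyp2d9 (9.43, 6.24, 8.71 and 7.27) and Cyp2d10 (9.99, 5.52, 8.07 and 7.15), none of which the test of the mean called. A second probe set of Cyp7a1 was under the threshold on every array (4.35, 4.21, 4.61 and 4.60) and did not have this order.

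**Figure D3:**
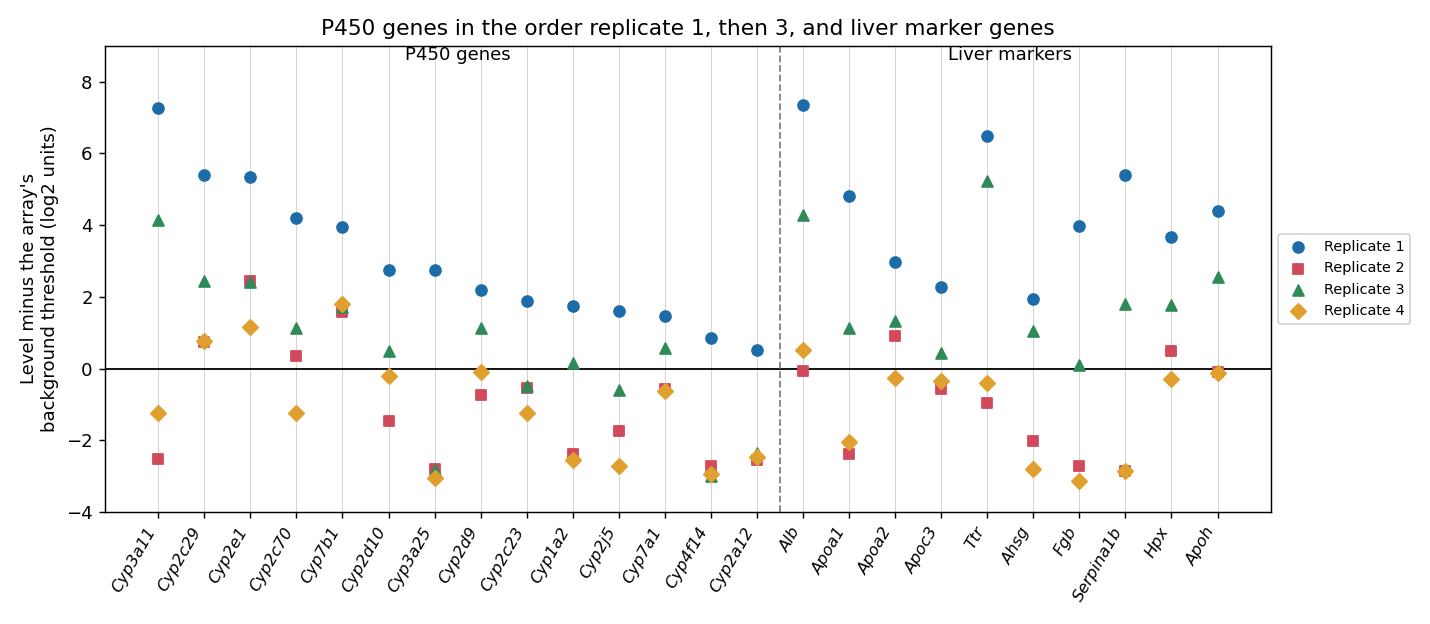
Points give each array's level minus its background threshold in log2 units. Left of the dashed line are the 14 P450 genes whose level was highest in replicate 1 and second in replicate 3, and right of it the 10 liver markers. The genes were picked by level. With the thresholds subtracted, as plotted, replicate 3 is not second in Cyp2e1, Cyp7b1, Cyp3a25 and Cyp4f14. Replicate 3 is over the threshold in 9 of the P450 genes and all 10 markers.

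Cyp7b1, an oxysterol 7-alpha-hydroxylase outside the classical bile acid route, was above background on every array and highest in replicate 1, with 11.19, 8.55, 9.28 and 9.17 (adjusted p = 0.00114, limma). Its second probe set, at 10.19, 7.60, 8.58 and 8.79, put replicate 1 highest as well.

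Cyp4f15 stood apart in replicate 3. It had 5.31, 6.30, 13.08 and 5.23, over the threshold in replicate 3 alone, and its gap was 6.78 as measured and 5.71 with the other arrays at their thresholds. Cyp46a1, the cholesterol 24-hydroxylase of neurons, had 7.89 in replicate 3, just over the threshold of 7.57, against 4.72 to 5.33. Replicate 3 was also the array with 305 of the 469 named genes high in a single array, with all 7 skeletal muscle markers over the threshold, and with Fabp4 of the adipocyte markers at 14.93 (Adipoq 7.77, Lep 5.04). Pbsn and Spink1 were highest there as well, and so were the urothelial genes Upk3a (14.91, against 4.55 to 7.03 elsewhere), Upk3b (14.34, against 10.44 to 11.73) and Krt20 (11.69, against 6.07 to 7.09). Upk1a, Upk1b and Upk2 were highest there by less (11.35, 15.73 and 10.33, against up to 11.02, 15.07 and 10.30). The urothelial markers Krt5 and Trp63 were highest in replicate 2 (14.95 and 15.39, against 14.21 and 14.85 in replicate 3). Of 6 lacrimal and salivary markers, Pip and Bhlha15 were highest in replicate 3. Pip had 5.30, 13.33, 16.16 and 13.45, and Bhlha15 had 8.61, 10.17, 12.95 and 10.21. Dcpp1 was lower in replicate 3 (8.92) than in replicates 2 and 4 (11.50 and 11.51), and Amy1 was lowest in replicate 3 (9.07). Lcn11 and Smgc were under the threshold on every array. Their part in the level of Cyp4f15 was not tested.

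The Cyp4f genes are neighbours on mouse chromosome 17 and fell into different groups. In chromosomal order Cyp4f39 and Cyp4f16 were even, Cyp4f15 was high in replicate 3, Cyp4f14 was high in replicate 1, and Cyp4f13 was even. The same held for other P450 clusters. On chromosome 7, Cyp2s1 and Cyp2f2 were even, Cyp2a12 was high in replicate 1 alone, and Cyp2b13, Cyp2b19 and Cyp2g1 were under the threshold on every array. On chromosome 4, Cyp2j6 and Cyp2j9 were even, whereas their neighbour Cyp2j5, known from kidney and liver, had 8.84, 5.24, 6.98 and 4.64 and was over the threshold in replicate 1 alone. In the chromosome 19 cluster of subfamily 2c, Cyp2c29, Cyp2c50 and Cyp2c70 were high in replicate 1, and Cyp2c37, Cyp2c39, Cyp2c54, Cyp2c55 and Cyp2c65 were under the threshold on every array.

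**Figure D4:**
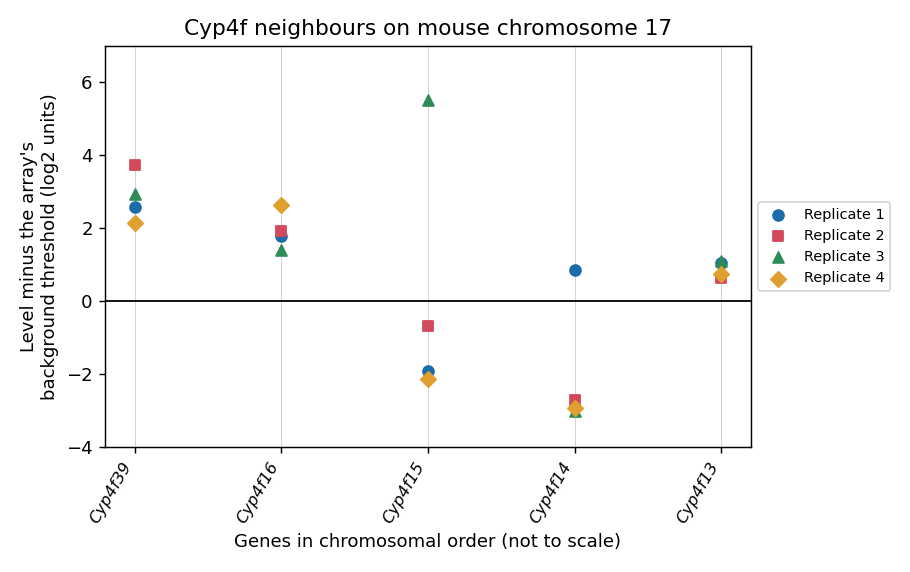
Points give each array's level minus its background threshold in log2 units for the Cyp4f genes on chromosome 17, in chromosomal order and without scale. Cyp4f39, Cyp4f16 and Cyp4f13 are over the line on all 4 arrays, Cyp4f15 in replicate 3 alone and Cyp4f14 in replicate 1 alone.

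Both inducible family 1 genes present on every array were highest in replicate 2. Cyp1b1, which oxidises polycyclic hydrocarbons and oestradiol outside the liver, had 11.88, 13.95, 12.78 and 11.96 (adjusted p = 2.89e-06, limma). Cyp1a1, the classical target of the aryl hydrocarbon receptor, had 7.97, 10.24, 8.56 and 8.07. Its call (adjusted p = 0.0199) was lost without replicate 2 (0.057) and with both stricter backgrounds (0.0922 and 0.273). The second Cyp1b1 probe set, also above background, did not part replicate 2 from replicate 1 (9.13, 9.24, 8.06 and 7.55). Ahr, the receptor itself, had 15.55, 15.51, 14.54 and 15.04, Arnt, its partner, 12.14 ± 0.34, and Ahrr, its repressor, 9.59, 9.57, 8.42 and 9.11, so none of the 3 was set apart in replicate 2. All 7 smooth muscle markers were highest on that array too (Actg2 at 13.30, against 11.08 to 11.64 elsewhere), as were Svs2, Svs4 and Svs5 and the Actb 3' to 5' ratio. Their part in these levels was not tested.

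Cyp2b10, the phenobarbital-inducible P450 of mouse liver, had 10.78, 12.54, 14.03 and 12.71, lowest in replicate 1 and highest in replicate 3, with a range of 3.25 (adjusted p = 5.42e-06, limma). All 3 of its probe sets were above background, with replicate 1 lowest and replicate 3 highest in each. Of 6 lacrimal and salivary markers, Pip and Bhlha15 had the same lowest and highest array, while Amy1, Dcpp1, Lcn11 and Smgc did not. Upk1b and Upk3a of the urothelial markers, Fabp4 of the adipocyte markers and Ckm and Mylpf of the skeletal muscle markers had them too. The other urothelial markers did not. The part of these tissues in the level of Cyp2b10 was not tested. Nr1i3, the receptor that induces Cyp2b10 in liver, was under the threshold on every array (7.19, 6.06, 5.16 and 6.01). Cyp2b9, the neighbour of Cyp2b10, was within 0.78 over the arrays (7.52, 7.46, 6.94 and 6.73) and not above background.

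The spread between arrays was also tested, as the variance of a gene over the 4 arrays relative to that of probe sets of like level. Of the 20 P450 genes above background 0 passed (limma's prior variance, F test, Benjamini-Hochberg), as did 0% of all named genes above background. An unadjusted p under 0.05 was found in 3 of the 20. The share of all named genes at that unadjusted limit is not given, so the 3 cannot be called many or few. The prior comes from the same arrays. Pip, above background with levels from 5.30 to 16.16, did not pass either. The count of 0 therefore does not show that the P450 genes varied little. Genes such as Cyp3a11 and Cyp4f15 did not enter this test, because their means were not above background.

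Genes that serve or regulate P450 enzymes were listed beside them, together with Cyp51, Ptgis and Tbxas1, P450 genes outside the symbol rule. Of 25 measured genes on this list, 18 were above background, beside 57.9% of all named genes. Cyb5a and Cyb5b, the cytochromes b5 that pass electrons to P450 enzymes, were at 15.48 ± 0.40 and 14.38 ± 0.31, and Cyb5r3, a reductase of cytochrome b5, was at 14.47 ± 0.33. The call of Cyb5r3 was lost when probe sets open to several transcripts were left out (adjusted p = 0.655, limma). Alas1, the first enzyme of haem synthesis, was at 13.08 ± 0.47, and Ephx1, the microsomal epoxide hydrolase, at 13.36 ± 0.19. Ptgis, the prostacyclin synthase, a P450 outside the symbol rule, had 13.41, 13.42, 11.29 and 13.14, lowest in replicate 3. Nr1i2 and Nr1i3, the drug-sensing receptors of liver, were not above background (6.83 ± 0.25 and 6.11 ± 0.83). Nr1h4, the bile acid receptor, had 8.69 in replicate 1, against 5.94 to 6.85 elsewhere.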

How the data were processed

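RNA of 4 adult ureter samples was measured on Affymetrix arrays. The values are the authors' linear intensity for each probe set. Per the submitters' processing notes the tool was GCOS, with no version or algorithm stated. Trimmed by 2% at each end, the mean intensity was 1500 on all arrays, so no further scaling was applied. Symbols came from the platform's annotation: 34945 of 45037 probe sets had 1 symbol, 932 several and 9160 none, and names were taken only from the first kind. Their gene identifiers were found in RefSeq GRCm38.p6 for 34754, which changed 0 symbols, and 69 of the 70 P450 genes were placed on chromosomes there.

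Values were tested as log2(intensity + 16) minus each array's threshold, the 95th percentile of its chemosensory receptor probe sets, with limma 3.58.1 in R 4.3.3 (eBayes with trend and robust), one-sided, adjusted over all probe sets that are no controls. A single called probe set sufficed to call a gene. The scripts were tested on simulated data. The members, lists and tests were chosen with earlier results of these data known. The rule for named genes took Por, the 10 even genes with the highest mean, all genes high in 1 or 2 arrays, the highest gene of each role group, genes next to a limit, genes with an outlying array and the first 3 measured genes of each list. Other genes were named after their values were seen. The motifs were also chosen then. Alternatives were 2 pseudocounts, quantile normalization, 2 backgrounds, other handling of probe sets, other limits and leaving out arrays. The number of arrays limits the precision.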

Additional observations from a re-analysis of the deposited data

Results flagged for a closer look

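In these genes the highest or lowest of the 4 samples lay apart from the rest, with a gap to the nearest sample, as a share of the whole range, over Dixon's 95% limit for 4 samples. Chance puts about 1 in 20 groups over it, and 42 P450 genes and 51 other genes were examined, of which 6 and 3 passed it. The 42 were chosen as over the threshold on at least 1 array. Cyp2c50, Cyp4f14, Cyp3a25 and Cyp4f15 entered only through the array that then lay apart. The 6 can therefore not be set against the rate of 1 in 20. Replicate 1 was the high sample in Cyp2c50 (0.951 of the range), Cyp4f14 (0.924) and Cyp3a25 (0.902), and the other samples of these genes were under the background threshold. Cyp4f15 had 0.864, with replicate 3 high. Cyp4f16 had 0.9, with replicate 4 only 0.99 log2 units above the next sample. Cyp2j11 had 0.921, with replicate 1 the low sample, at levels near or under the threshold throughout. Outside the P450 genes, Myh4 (0.969) and Fabp4 (0.839) were high in replicate 3, and Ptgis (0.87) was low there.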

How the results depend on the processing

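The count of P450 genes above background was 20 and ranged from 17 to 21 over the alternatives. The 20 genes were all kept with pseudocounts of 1 and 64 and with quantile normalization, and 17 of them were kept with each stricter background. Of all named genes 54.1% and 50.4% were above background with those 2 backgrounds. Leaving out 1 replicate gave 19 to 21, where 56.4% to 58% of all named genes were above background. Leaving out replicates 1 and 3 together, chosen after the data were examined, gave 18, where 57.2% of all named genes were. The partner list had 18 genes above background and 14 when probe sets open to several transcripts were left out. The spread test called 0 P450 genes under each alternative it was run with (pseudocounts, normalization, backgrounds, probe set handling, the filter on dim probe sets and 1 replicate left out). With the settings of the report it called 0% of all named genes above background too. The count of even genes was 14, and 14 to 18 without 1 replicate. With a range limit of 1 log2 unit it was 6, where 33.6% of all named genes were even. The count of genes high in 1 array was 11, and 4 to 15 without 1 replicate, with 4 when replicate 1 was left out. With a gap limit of 1 log2 unit it was 20, and with 3 it was 4, where 7.87% and 0.995% of all named genes were high in 1 array. With levels under the threshold set to it, it was 6, and without replicates 1 and 3 it was 1. With arrays left out, the shares of all named genes that were even or high in 1 array are not given. With dim probe sets left out before sorting, 26 P450 genes were measured and 5 of them were high in 1 array. The other counts were within 1.5 times the value with all arrays and the settings of the report. Among 65 named genes, 30 of 751 values lost a call and 5 gained one. A reversed call could not occur, because the test was one-sided. Distances of some genes that were not called changed sign. Cyp4f15 went from 0.19 to -1.58 without replicate 3, and Apoa1 from 0.376 to -1.1 without replicate 1. The causes were not tested. No paired analysis was possible because all samples belong to 1 group.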

Other observations

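Cyp51 and Cyp4a12a also lay outside the symbol rule, and Cyp51 was already counted on the list of partners and regulators. Cyp51, the lanosterol demethylase of cholesterol synthesis, was above background and even, with 8.84, 9.41, 10.59 and 9.42 in replicates 1 to 4 (adjusted p = 0.000124, limma). Cyp4a12a, a fatty acid hydroxylase of male mouse kidney and liver, had 8.97, 5.57, 7.19 and 5.11, over the threshold in replicate 1 alone.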
